A study of Mus musculus with 20 samples.

Results

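The cholesterol and fatty acid synthesis genes are 32 mouse genes chosen by name, out of 27911 genes in the count table. They were followed by RNA-seq in clonal lines of ATDC5, a mouse chondrogenic cell line that forms cartilage-like cells in culture. All 32 were found in the table, and all 32 were among the 15467 genes that passed the filter on low counts. For the account below they were ordered by role into 7 genes of the mevalonate arm, 11 genes from squalene to cholesterol, 6 genes of sterol sensing and transport, and 8 genes of the fatty acid branch. The first 18 are called the sterol enzymes.

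The lines compared were 3 Kmt2d+/+ clones and 2 Kmt2d-/- clones, the latter with deletions on both alleles of the catalytic SET domain of Kmt2d, an enzyme that methylates lysine 4 of histone H3. Each clone gave 1 library at day 0, undifferentiated and in standard medium with fetal bovine serum, and 1 library after 7 days of chondrogenic differentiation. The differentiation medium held the same serum and, in addition, insulin, transferrin, selenium, ascorbic acid and beta-glycerophosphate, so time in culture and the change of medium cannot be told apart. The labels name Kmt2d+/+ clones 1, 2 and 3 as 10-5, 10-7 and 10-8, and both mutants as 10-7 and 96-9, so Kmt2d+/+ clone 2 and Kmt2d-/- clone 1 share a name across genotypes; they were treated as separate lines. The design asked how the day 7 change and the genotypes differ, over 10 libraries in 4 groups. With 1 library per clone and day, the p-values of the fit of group means rest on the spread between clones. Fits with a term for each clone compare the days within a clone, and their p-values rest on the spread of that change. Differences between the genotypes cannot be told apart from differences between lines.

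Cells make cholesterol from acetyl-CoA through the mevalonate arm, which ends in farnesyl diphosphate, and then through squalene, lanosterol and a series of reductions and demethylations. The transcription factor SREBP-2, product of Srebf2, drives the genes of this route when sterols in the endoplasmic reticulum are low; the escort protein Scap carries it to the Golgi, and the Insig proteins hold it back. SREBP-1, product of Srebf1, is the relative better known for driving fatty acid synthesis, in which Acly, Acaca and Fasn build the carbon chain, Elovl6 lengthens it, and the Scd and Fads desaturases add double bonds. SREBP proteins bind sterol regulatory elements, usually beside a CCAAT box bound by NF-Y. Chondrocytes use these routes for membranes and signalling lipids, and cholesterol also modifies hedgehog proteins.

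Promoter windows of 300 bases, from 250 before to 50 after an annotated start, were taken from RefSeq (GRCm38.p6) and were found for 25 of the 32 genes. Fads1, Fdft1, Fdps, Scd1, Scd2, Sqle and Stard4 had no entry. The 5 windows below show what was searched for, and they were chosen after their matches had been seen. Hmgcs1 held the only exact match to TCACNCCAC, the sterol regulatory element motif searched for, and Msmo1 held 3 CCAAT boxes. Insig1 is a sterol sensor, and Fasn and Elovl6 stand for the fatty acid branch with and without a CCAAT box. Capitals mark the motif TCACNCCAC and CCAAT, or its complement ATTGG on the other strand; in Fasn the run CCAATTGG is an overlapping pair.
Hmgcs1: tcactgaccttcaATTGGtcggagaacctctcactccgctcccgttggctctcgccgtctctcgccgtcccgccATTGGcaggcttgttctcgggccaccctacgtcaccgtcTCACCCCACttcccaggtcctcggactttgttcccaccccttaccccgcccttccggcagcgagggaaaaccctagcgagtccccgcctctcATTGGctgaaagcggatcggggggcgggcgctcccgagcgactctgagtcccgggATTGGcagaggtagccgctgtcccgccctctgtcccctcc
Msmo1: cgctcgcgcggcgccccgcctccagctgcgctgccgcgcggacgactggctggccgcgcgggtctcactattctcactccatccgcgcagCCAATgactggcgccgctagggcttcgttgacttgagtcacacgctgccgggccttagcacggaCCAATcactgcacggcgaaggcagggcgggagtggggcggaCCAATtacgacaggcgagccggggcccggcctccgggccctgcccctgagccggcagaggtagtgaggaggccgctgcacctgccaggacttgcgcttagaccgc
Insig1: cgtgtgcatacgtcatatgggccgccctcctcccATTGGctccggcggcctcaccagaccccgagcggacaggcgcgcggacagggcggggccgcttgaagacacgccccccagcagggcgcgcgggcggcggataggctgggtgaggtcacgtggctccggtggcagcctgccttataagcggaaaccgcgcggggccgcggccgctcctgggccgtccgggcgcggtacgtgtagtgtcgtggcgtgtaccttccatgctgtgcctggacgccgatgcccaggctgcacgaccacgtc
Fasn: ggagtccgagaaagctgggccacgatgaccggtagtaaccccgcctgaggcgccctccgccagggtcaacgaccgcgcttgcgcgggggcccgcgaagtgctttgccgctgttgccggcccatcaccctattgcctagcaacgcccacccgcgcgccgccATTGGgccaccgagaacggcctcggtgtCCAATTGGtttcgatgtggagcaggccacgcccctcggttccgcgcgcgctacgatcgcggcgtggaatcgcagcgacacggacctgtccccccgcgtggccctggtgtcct
Elovl6: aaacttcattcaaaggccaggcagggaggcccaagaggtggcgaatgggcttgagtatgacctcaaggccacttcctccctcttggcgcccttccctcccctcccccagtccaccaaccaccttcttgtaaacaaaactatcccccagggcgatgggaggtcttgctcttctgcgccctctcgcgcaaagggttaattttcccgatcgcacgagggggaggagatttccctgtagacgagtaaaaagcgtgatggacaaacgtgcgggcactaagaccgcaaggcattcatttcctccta

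The windows lie at chr13:119690101-119690400 on the plus strand for Hmgcs1, chr8:64733529-64733828 on the minus strand for Msmo1 and chr5:28071162-28071461 on the plus strand for Insig1. That of Fasn lies at chr11:120824498-120824797 on the minus strand and that of Elovl6 at chr3:129532136-129532435 on the plus strand. The match to the sterol regulatory element motif in Hmgcs1 starts at -137 from the annotated start, between CCAAT boxes at -176 and -45. Searched on both strands, TCACNCCAC was in the windows of 1 of the 25 genes, beside 1.38% of the 11205 tested genes with a window and 1.12% of their 14321 windows. A CCAAT box was in the windows of all 9 genes from squalene to cholesterol that have one, of 5 of 6 mevalonate genes, 4 of 5 sensing and transport genes and 2 of 5 fatty acid genes. Over the members that is 20 of 25 genes, or 80.0%, beside 42.9% of all tested genes with a window. The Sp1 box GGGCGG was in 21 of 25 genes, beside 65.8% of all, and the E-box CANNTG in 18 of 25, beside 68.3%. A match is a stretch of letters and no evidence of binding. A window without a match says nothing about sites elsewhere, or about sites in the window whose letters differ from those searched.

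Libraries held 35792709 to 66237183 estimated counts, and every day 7 library was deeper than every day 0 library; the part of depth in the results was not tested. Levels are given in CPM, counts relative to TMM-scaled library sizes. The SET deletion covers only a stretch of Kmt2d, so a gene-level count does not check the genotype labels. The summed level of 10 chondrocyte markers rose from 38.6-127 CPM to 304-1049 CPM in Kmt2d+/+ clones and from 1016-2840 CPM to 23560-27750 CPM in Kmt2d-/- clones, so cartilage genes moved with day and with genotype beside every result below; their part in it was not tested. In bulk RNA, fewer cells of a type and less RNA per cell cannot be told apart. Of 15 adipocyte markers 7 stayed under 1 CPM in every library, among them Adipoq, Plin1 and Cd36. The other 8 were tested. Of them 1, the lipase gene Lipe, rose at day 7 in Kmt2d+/+ clones (log2 fold change 1.34, adjusted p = 0.0474 in edgeR), where 3.05% of all genes rose. The median over the 8 was 0.41. The summed level of the list, led by Lpl, went from 68.6-198 to 113-263 CPM in Kmt2d+/+ clones and from 71.5-92.6 to 100.1-116 CPM in Kmt2d-/- clones; its part in the day 7 results was not tested. All 6 hepatocyte markers stayed under 1 CPM. Adipocytes and hepatocytes are the cell types best known for high expression of these genes.

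From day 0 to day 7 in the Kmt2d+/+ clones 7 of the 18 sterol enzymes rose, and the other 11 did not pass the test; the median over all 18 was 1.92-fold. The desaturases Scd1, Scd2 and Fads1 rose 2.30- to 2.51-fold, while none of the enzymes that build the fatty acid chain passed. Of the 32 genes 13 rose and 0 fell at a Benjamini-Hochberg adjusted p under 0.05 in edgeR's quasi-likelihood test, where 3.05% of all genes tested rose. The median log2 fold change was 0.94 over the 18 sterol enzymes, all of them positive, 0.40 over the fatty acid branch, and 0.03 over all 15467 genes. In 22 of the 32 genes the lowest Kmt2d+/+ library at day 7 lay above the highest at day 0, where 16.2% of all genes did so. With a term for each clone, which compares each clone with itself, 21 genes rose, where 10.3% of all genes did.

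**Figure D1:**
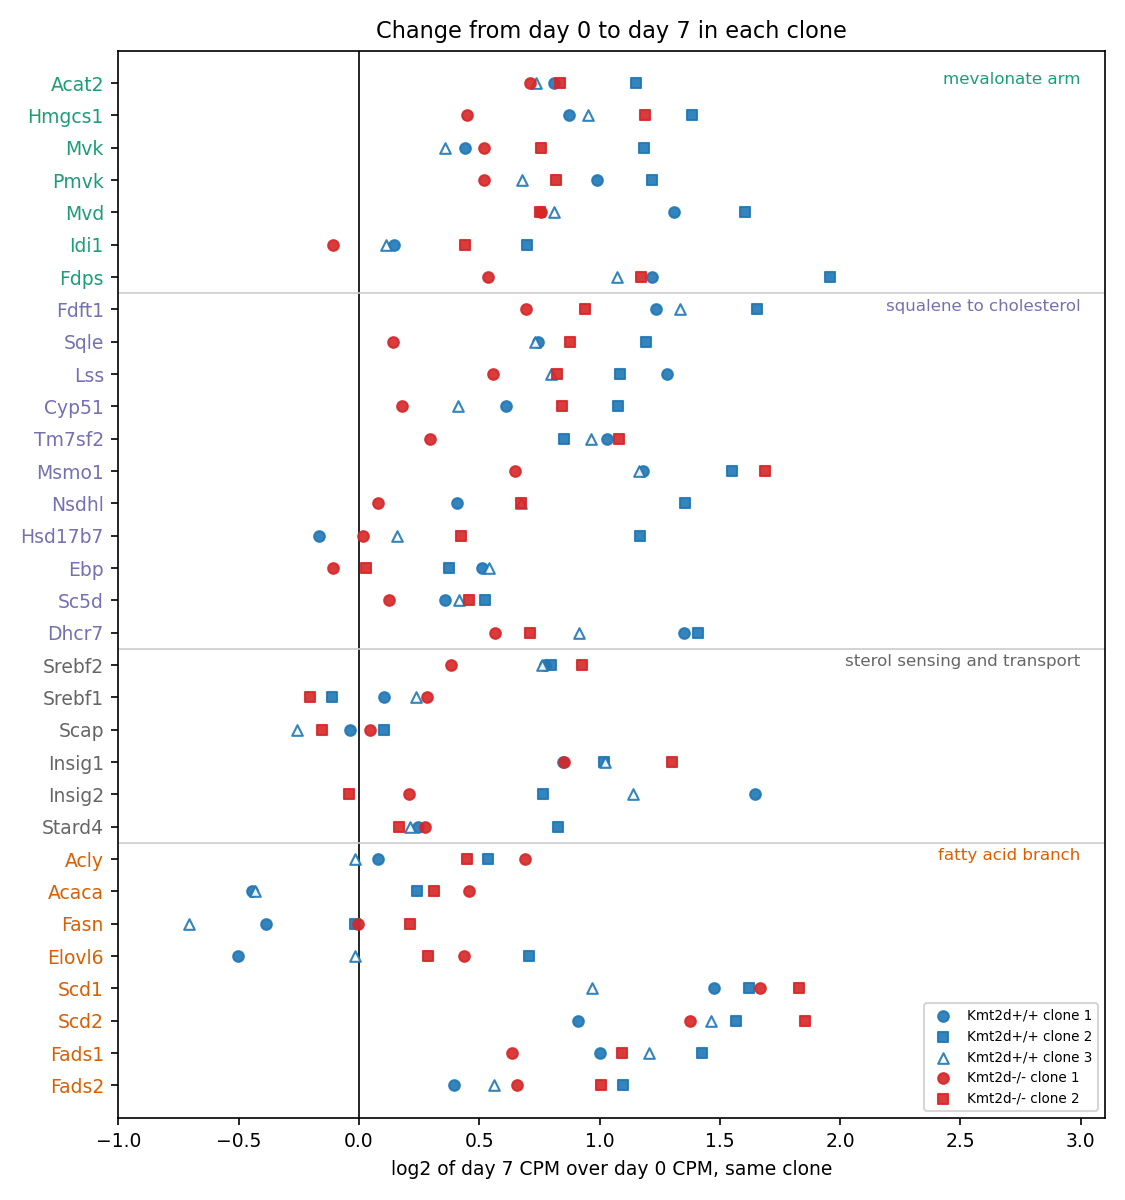
Change of each of the 32 genes from day 0 to day 7 (x axis, log2 of day 7 CPM over day 0 CPM within a clone; zero is no change), with 1 point per clone, blue for Kmt2d+/+ and red for Kmt2d-/-, and gene names coloured by role. Points of 22 of the 32 genes lie right of zero in all 5 clones, whereas the other 10 have points on both sides, namely Idi1, Hsd17b7, Ebp, Srebf1, Scap, Insig2, Acly, Acaca, Fasn and Elovl6.

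In the mevalonate arm 4 of 7 genes rose. Hmgcs1, the synthase that makes HMG-CoA (chr13:119690379-119708260), was measured at 328, 235 and 257 CPM in Kmt2d+/+ clones 1, 2 and 3 at day 0 and at 599.7, 615 and 496 CPM at day 7. All 3 day 7 values lay above all 3 day 0 values, and the group means were 273 ± 48.4 and 569.9 ± 64.9 CPM (SD, n = 3), a log2 fold change of 1.06 with an SE of 0.24 and an adjusted p of 0.0432. Acat2, the thiolase that joins acetyl-CoA units in the cytosol, stood at 129, 95.1 and 109 CPM at day 0 and at 227, 211 and 182 CPM at day 7. It rose 1.86-fold with an adjusted p of 0.0231. Near-identical sequence makes this value uncertain, since 43.7% of the 31-base stretches of Acat2 transcripts also occur in Acat3. Fdps, which makes farnesyl diphosphate, went from 53.9, 50.7 and 40.0 CPM to 126, 197 and 84.1 CPM, with clone 2 far above the other two at day 7. Its log2 fold change of 1.49 ± 0.29 (SE, adjusted p = 0.0303) was the largest of the 32 genes in this comparison; 27.9% of its 31-base stretches occur in other annotated genes. Pmvk, which adds the second phosphate to mevalonate, went from 13.5, 15.3 and 13.4 CPM to 26.9, 35.7 and 21.4 CPM, without overlap (adjusted p = 0.0416).

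The other mevalonate genes were Mvk, Mvd and Idi1, the kinase, the decarboxylase and the isomerase of the arm. Mvd had a larger change than most (log2 fold change 1.32) with an adjusted p of 0.0502, and of 0.0121 with a term for each clone. Mvk had 0.72 and Idi1 0.34, with adjusted p of 0.135 and 0.39. Of the 31-base stretches of Idi1 18.8% occur in other annotated genes.

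Of the 11 genes from squalene to cholesterol 3 rose. Fdft1, squalene synthase and the first step that leads only to sterols (chr14:63145150-63179578), stood at 28.7, 26.6 and 25.8 CPM at day 0 and at 67.5, 83.7 and 64.9 CPM at day 7. The day 0 values lay close together and far below the day 7 values. The group means were 27.0 ± 1.53 and 72.1 ± 10.2 CPM, a 2.67-fold rise with the smallest adjusted p of the 32 genes, 0.00741. Of the 31-base stretches of Fdft1 14.3% also occur in the annotated gene Gm6781. Lss, which closes the rings to form lanosterol, went from 32.9, 51.1 and 44.5 CPM to 79.8, 108 and 77.4 CPM (adjusted p = 0.0408). Dhcr7, the reductase of the last step, went from 14.5, 18.0 and 17.4 CPM to 36.9, 47.7 and 32.9 CPM, a 2.35-fold rise (adjusted p = 0.0202). Neither gene overlapped between days.

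The remaining 8 genes of this arm had positive log2 fold changes of 0.35 to 1.36 and did not pass. They were Sqle, Cyp51, Tm7sf2, Msmo1, Nsdhl, Hsd17b7, Ebp and Sc5d, the epoxidase, demethylases, reductases, isomerase and desaturase that turn squalene into the last precursors of cholesterol. Msmo1, a C4 demethylase, had the largest change among them, 1.36 ± 0.42 (SE, adjusted p = 0.0891). With a term for each clone, 6 of these 8 passed, namely Sqle, Cyp51, Msmo1, Nsdhl, Ebp and Sc5d. Tm7sf2, a sterol reductase with the lowest level per kilobase of the 32 genes, stayed between 0.441 and 3.39 CPM in all libraries. Of its 31-base stretches 12.9% occur in other annotated genes. At day 7 Kmt2d+/+ clone 2 was the library with the highest level of all 10 for 14 of the 18 sterol enzymes.

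Among the sensing and transport genes 3 of 6 rose. Srebf2 (chr15:82147181-82205379) stood at 259, 265 and 252 CPM at day 0 and at 442, 460.1 and 427 CPM at day 7. The clones agreed closely on both days, and the 1.71-fold rise had an adjusted p of 0.0256. Insig1 went from 101, 126 and 83.2 CPM to 182, 256 and 169 CPM (adjusted p = 0.0473), and Insig2, its relative, from 32.4, 33.7 and 31.1 CPM to 102, 57.3 and 68.6 CPM (log2 fold change 1.23, adjusted p = 0.0218). Both Insig genes were higher at day 7 in every clone of this genotype. Srebf1 and Scap had log2 fold changes of 0.09 and -0.06, with adjusted p of 0.814 and 0.8. Stard4, which carries cholesterol between membranes, had 0.39 and an adjusted p of 0.28.

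The fatty acid branch split by enzyme type. This split into 4 desaturases and 4 enzymes of carbon chain synthesis was made after the values had been seen, and it is a description. Scd1, a stearoyl-CoA desaturase (chr19:44394455-44407879), went from 95.4, 78.7 and 127 CPM to 265, 242 and 248 CPM, a 2.51-fold rise (adjusted p = 0.0135). Scd2, its neighbour and the member with the highest level per kilobase, went from 650.3, 374 and 423 CPM to 1222, 1109 and 1166 CPM, a 2.42-fold rise (adjusted p = 0.0236). Fads1, the delta-5 desaturase of polyunsaturated fatty acids, went from 90.9, 70.6 and 78.2 CPM to 182, 189.5 and 180.3 CPM, a 2.30-fold rise (adjusted p = 0.0236). All 3 were free of overlap. Fads2, the delta-6 desaturase, had a log2 fold change of 0.65 with an adjusted p of 0.105, and of 0.0386 with a term for each clone. Scd1 and Scd2 share 8.14% and 6.81% of their 31-base stretches with other genes, chiefly Scd3 and each other.

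None of the 4 carbon chain enzymes passed. Acly, which makes cytosolic acetyl-CoA for both routes, had a log2 fold change of 0.16, Acaca, the carboxylase that commits acetyl-CoA to fatty acids, -0.25, the synthase Fasn -0.37, and Elovl6 0.08. Fasn, with the lowest p of the 4, stood at 135, 102 and 134 CPM at day 0 and at 103, 101 and 82.1 CPM at day 7 (adjusted p = 0.186). Acaca stood at 139.5, 81.1 and 130.0 CPM and at 102, 95.7 and 96.4 CPM, and the days overlapped for both genes. Of the 31-base stretches of Acaca 33.4% occur in other annotated genes, so its values are uncertain.

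The number of calls in the Kmt2d+/+ clones depended on which clone was left out. It was 0 without clone 1 or without clone 3, where no gene of the whole table passed. Without clone 2 it was 6, while 862 genes of the table passed in place of 786. It was 9 without Kmt2d-/- clone 1, where 548 of 16086 genes passed, and 9 without Kmt2d-/- clone 2, where 517 of 16008 did. The 13 genes stayed higher at day 7 under each of these and under every other alternative tried.

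**Figure D2:**
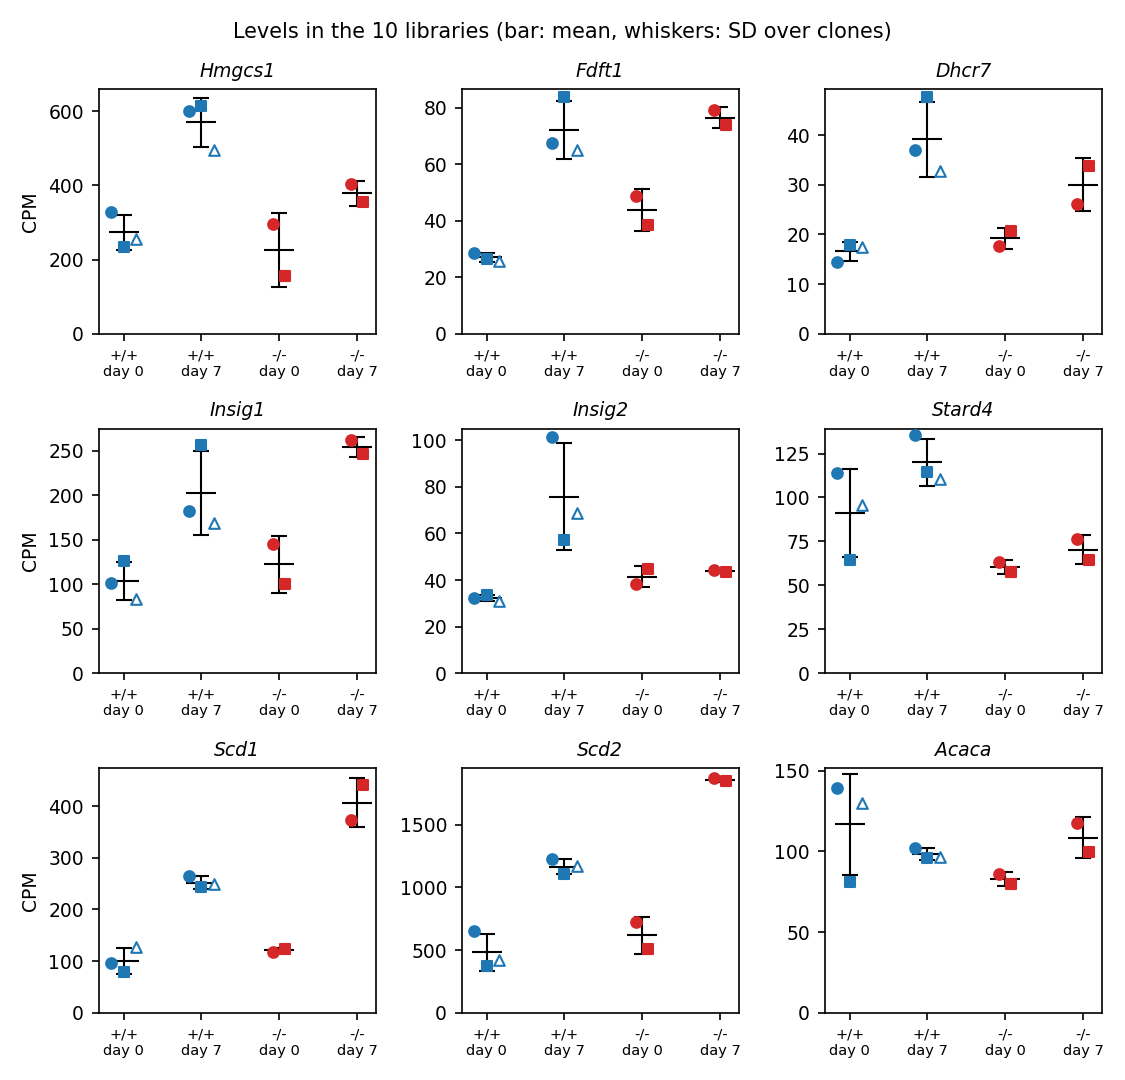
Levels of 9 of the 32 genes (y axis, CPM from 0) in the 10 libraries by genotype and day, with 1 symbol per clone (circle, square and triangle for clones 1, 2 and 3; blue Kmt2d+/+, red Kmt2d-/-), a bar at the group mean and whiskers of 1 SD. Hmgcs1 and Fdft1 are higher at day 7 in both genotypes, Insig2 is higher at day 7 in the blue clones and lies at 38.2 to 44.6 CPM in the red ones, Stard4 is lower in the red clones on each day, Scd1 and Scd2 are highest in the red clones at day 7, and Acaca overlaps between days in the blue clones.

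In the Kmt2d-/- clones the desaturases Scd1 and Scd2 rose and no sterol enzyme passed the test. These 2 of the 32 genes rose and 0 fell, where 0.672% of all genes rose. Scd1 went from 117 and 124 CPM in clones 1 and 2 to 373 and 441 CPM, a 3.37-fold rise with an adjusted p of 0.0207. Scd2 went from 720.2 and 511 CPM to 1869 and 1846 CPM, a 3.02-fold rise with an adjusted p of 0.0397. Both mutant clones showed both rises. Both calls were kept without Kmt2d+/+ clone 1 and without Kmt2d+/+ clone 2. Neither passed without Kmt2d+/+ clone 3 or in a fit of these 4 libraries alone, and in both of those fits no gene of the table passed. Without 1 Kmt2d-/- clone each day has 1 mutant library, whose spread is then assumed to be that of the Kmt2d+/+ clones; neither gene passed in these fits, with log2 fold changes of 1.37 to 1.84.

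The sterol enzymes had positive log2 fold changes in 17 of 18 cases in these clones, with a median of 0.64, beside 0.00 over all genes. Acat2 had the lowest p of the mevalonate arm and went from 86.1 and 87.9 CPM to 141 and 157 CPM (log2 fold change 0.77 ± 0.19, SE, adjusted p = 0.0921). Fdft1 went from 48.9 and 38.5 CPM to 79.2 and 73.8 CPM (0.81 ± 0.19, adjusted p = 0.0822). Insig1 went from 145 and 100.0 CPM to 262 and 246 CPM (1.05 ± 0.28, adjusted p = 0.116). None of the 3 overlapped between days, as in 24 of the 32 genes, where 22.9% of all genes were higher at day 7 without overlap. With a term for each clone, 6 genes rose (Acat2, Fdft1, Insig1, Scd1, Scd2 and Fads1), where 3.16% of all genes did. DESeq2 called 6 as well, with Srebf2 in place of Fads1, where it called 3.72% of all genes as higher. Over both genotypes, 22 of the 32 genes were higher at day 7 in each of the 5 clones, where 20.2% of all genes were.

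The change in Hmgcs1 differed between the mutant clones, from 296 to 403 CPM in clone 1 and from 156 to 356 CPM in clone 2. Msmo1 showed the same order, with a log2 change of 0.65 in clone 1 and 1.69 in clone 2. Clone 1 had the smallest change of the 5 clones for 15 of the 18 sterol enzymes. Its day 0 levels were above those of clone 2 for most sterol enzymes. Among them were Hmgcs1, Sqle (189 against 71.0 CPM), Cyp51 (242 against 143 CPM) and Msmo1 (93.1 against 38.9 CPM). They were below those of clone 2 for Acat2, Pmvk, Mvd, Lss (46.4 against 57.1 CPM) and Dhcr7 (17.7 against 20.7 CPM).

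At day 7 no gene of the 32 passed between the genotypes in edgeR, where 1.87% of all genes passed, 0.905% higher and 0.97% lower in Kmt2d-/-. At an unadjusted p under 0.05 there were 6, namely Acat2, Sc5d, Insig2 and Stard4 lower and Scd1 and Scd2 higher in Kmt2d-/-. That is 6 of 32 where 19.9% of all genes had such a p, so the count is at the background, and the values below are a description. DESeq2 called 4 of them at an adjusted p under 0.05 (Insig2, Stard4 and Sc5d lower, Scd1 higher), where it called 10.4% of all genes, and limma-voom called 0. Groups did not overlap for 7 genes that were lower in Kmt2d-/- and 5 that were higher, where 19.8% and 17.9% of all genes were so; both counts are near the background.

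Insig2 reached 44.1 and 43.2 CPM in the Kmt2d-/- clones at day 7, below the lowest Kmt2d+/+ clone at 57.3 CPM. The log2 fold change was -0.79 ± 0.23 (SE, adjusted p = 0.109). Stard4 stood at 76.3 and 64.5 CPM, below the 135, 114 and 111 CPM of the other genotype (-0.77 ± 0.24, adjusted p = 0.122). Sc5d, the desaturase before Dhcr7, stood at 58.4 and 52.2 CPM against 80.2, 87.7 and 76.6 CPM (-0.56 ± 0.17, adjusted p = 0.125). Acat2 stood at 141 and 157 CPM, below the lowest Kmt2d+/+ clone at 182 CPM (-0.47 ± 0.17, adjusted p = 0.177). These 4 were lower in both mutant clones than in every Kmt2d+/+ clone.

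Scd1 at 373 and 441 CPM and Scd2 at 1869 and 1846 CPM lay above all Kmt2d+/+ clones at day 7. Their log2 fold changes were 0.69 ± 0.20 (SE, adjusted p = 0.105) and 0.67 ± 0.24 (adjusted p = 0.173). Fads1 and Fads2 were also without overlap, at 0.35 and 0.33 with adjusted p of 0.448 and 0.484. These 4 desaturase genes all lie on chromosome 19, where the other genes within 10 Mb also differed between the clones. The level of such neighbours was averaged over day 0 and day 7 of a clone, so it is not a day 7 value. Their median log2 level, relative to the Kmt2d+/+ mean, was 0.29 and 0.30 in the mutant clones around Scd1 and 0.40 and 0.37 around Fads1. In Kmt2d+/+ clone 2 it was -0.28 around Scd1 and -0.29 around Fads1. With the neighbours' level taken out, the log2 fold changes were 0.39 for Scd1, 0.36 for Scd2, -0.06 for Fads1 and -0.07 for Fads2. Tm7sf2, also on chromosome 19, stood at 3.23 and 3.39 CPM at day 7 against 1.875, 0.796 and 2.06 CPM. Its log2 fold change was the largest of the 32 genes, 1.07 ± 0.52 (SE, adjusted p = 0.291 in edgeR). The neighbours of Tm7sf2 had 0.41 and 0.38 in the mutant clones and -0.31 in Kmt2d+/+ clone 2. With their level taken out, Tm7sf2 was at 0.73. The neighbours of Insig2 had -0.10 and -0.26 in the mutant clones and left it at -0.59, and those of Stard4 had 0.22 and 0.24 and moved it to -1.01. In Kmt2d+/+ clone 2 the neighbours had -0.25 around Insig2 and 0.43 around Stard4, so such levels were not particular to the mutant clones. The neighbours of Acat2 had -0.23 and -0.22 in the mutant clones, and with their level taken out Acat2 was at -0.25. Those of Sc5d had -0.143 and -0.145, and with their level taken out Sc5d was at -0.41. Around these genes the Kmt2d+/+ clones lay between -0.08 and 0.07.

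**Figure D3:**
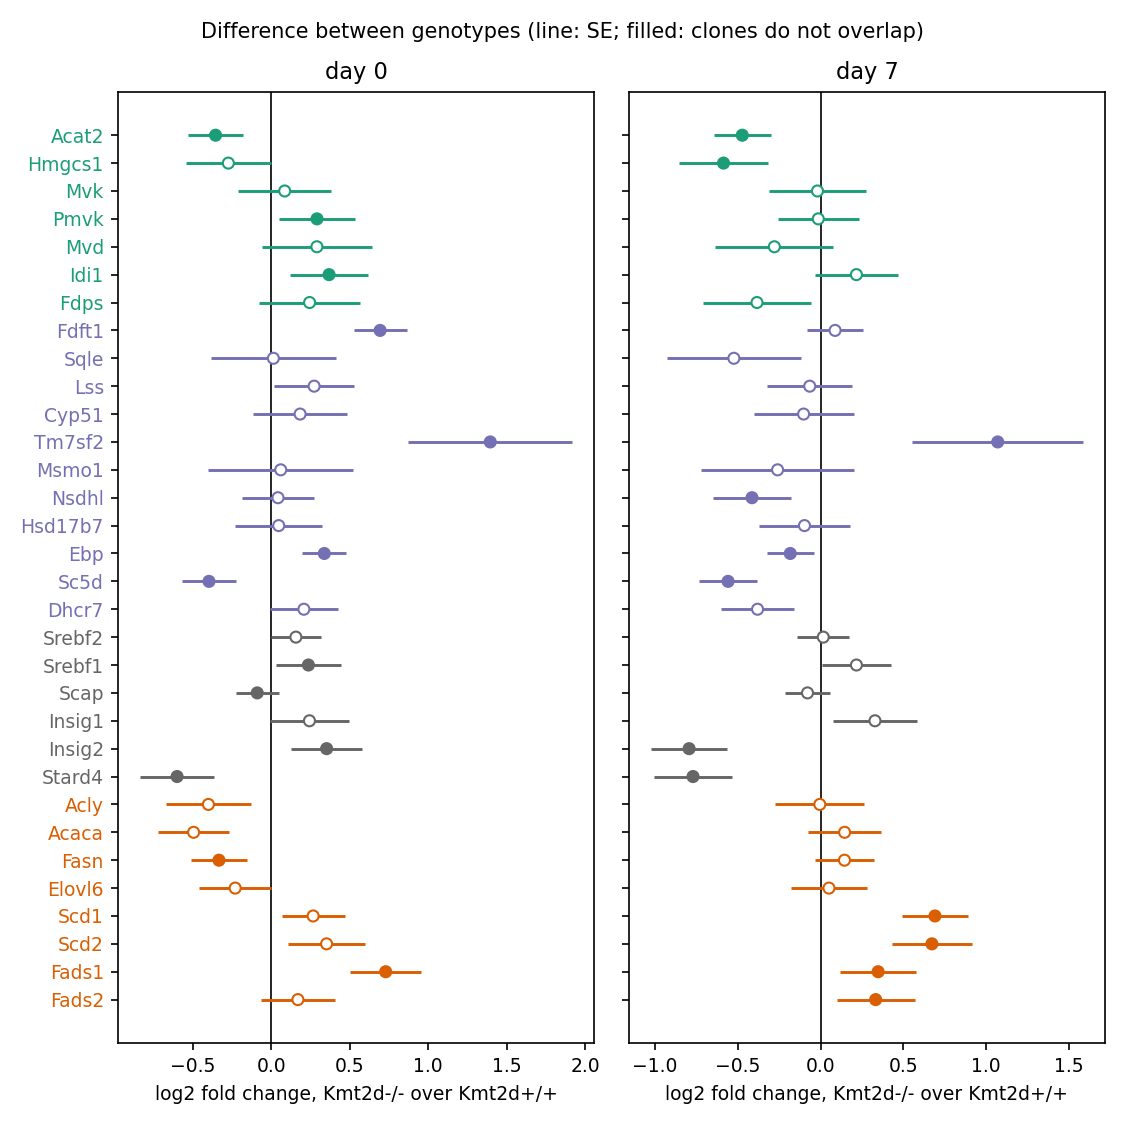
Difference between genotypes for each of the 32 genes at day 0 (left) and day 7 (right), as the log2 fold change of Kmt2d-/- over Kmt2d+/+ (x axis) with a line of 1 SE to each side; filled points mark genes without overlap between clones, colours mark the roles. At day 7 the 4 desaturases lie right of zero and Insig2 and Stard4 lie farthest left, while none of the 32 genes passed the test on either day. Tm7sf2, a gene at low levels, lies farthest right on both days.

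At day 0 no gene of the 32 passed in edgeR either, where 2.15% of all genes passed, 1.17% higher and 0.976% lower in Kmt2d-/-. At an unadjusted p under 0.05 there were 6, namely Fdft1, Tm7sf2, Ebp and Fads1 higher and Sc5d and Stard4 lower in Kmt2d-/-. With 20.2% of all genes at such a p, this count too is at the background. Fdft1 had the smallest adjusted p in edgeR, 0.0648, with 48.9 and 38.5 CPM in the mutant clones against 28.7, 26.6 and 25.8 CPM. Its log2 fold change was 0.69 ± 0.17 (SE), and 0.51 with the level of its neighbours taken out. It was the 1 gene that DESeq2 called, where DESeq2 called 11.0% of all genes, and limma-voom called 0. Stard4 stood at 63.1 and 57.5 CPM against 114, 64.6 and 95.6 CPM (-0.60 ± 0.24, adjusted p = 0.195). Fads1 stood at 167 and 97.5 CPM against 90.9, 70.6 and 78.2 CPM (0.73 ± 0.23, adjusted p = 0.122), and at 0.34 with its chromosome 19 neighbours taken out. Ebp, a sterol isomerase, stood at 110.3 and 91.7 CPM against 80.3, 79.5 and 79.9 CPM, a log2 fold change of 0.34. With the level of their neighbours taken out, Ebp was at 0.45 and Stard4 at -0.89, both larger in size than without. Groups did not overlap for 8 genes higher and 5 lower in Kmt2d-/-, where 18.6% and 18.3% of all genes were so. The carbon chain enzymes Acly, Acaca, Fasn and Elovl6 had log2 fold changes of -0.40, -0.50, -0.33 and -0.23. Their adjusted p ranged from 0.259 to 0.617 in edgeR. In Kmt2d+/+ clone 2 Acly and Acaca were low at day 0. Without that clone 1 of the 32 genes passed, and it was Acaca. In the same fit 912 of all 15188 genes tested passed, beside 332 of 15467 with all clones, so this call is no more than the background.

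The day 7 change was compared between genotypes by the interaction term. No gene of the 32 passed, and 0.0% of all genes did, in edgeR; DESeq2 and limma-voom also called 0 of the 32. At an unadjusted p under 0.05 there were 3 of the 32, where 3.67% of all genes were: Insig2, Fdft1 and Ebp, each with the smaller change in Kmt2d-/-. Insig2 changed by 1.65, 0.77 and 1.14 on the log2 scale in the Kmt2d+/+ clones and by 0.21 and -0.04 in the mutant clones, an interaction of -1.15 ± 0.32 (SE) with an unadjusted p of 0.00604 and an adjusted p of 1.0. Ebp changed by 0.51, 0.38 and 0.54 against -0.11 and 0.03 (interaction -0.52 ± 0.20, adjusted p = 1.0). Fdps had the lowest p of the mevalonate arm, 0.2, and Acaca that of the fatty acid branch, 0.0727, the latter with changes of -0.45, 0.24 and -0.43 against 0.46 and 0.31. Both mutant clones changed less than every Kmt2d+/+ clone in 5 genes (Mvd, Fdft1, Ebp, Dhcr7 and Insig2) and more in 3 (Acaca, Fasn and Scd1), where 14.4% and 12.9% of all genes did so; both counts are near the background.

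By direction alone, the interaction was negative for all 18 sterol enzymes, with a median of -0.32, and positive for 7 of the 8 fatty acid genes, with a median of 0.36. Over all genes the median was -0.03 and 8202 of 15467 were negative. These medians are a description without a test, and the one for the sterol enzymes rests on Kmt2d-/- clone 1: it was -0.0547 without that clone and -0.58 without clone 2.

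Set side by side within a clone, the sterol and fatty acid branches moved by unlike amounts in the Kmt2d+/+ clones. The median log2 change of the 18 sterol enzymes was 0.84, 1.19 and 0.73 in Kmt2d+/+ clones 1, 2 and 3, and that of the 8 fatty acid genes was 0.24, 0.90 and 0.27. In the mutant clones the sterol medians were 0.48 and 0.82 and the fatty acid medians 0.65 and 0.73. Within the fatty acid branch the 4 desaturases had medians of 0.96 to 1.50 over the 5 clones, above the sterol enzymes in each clone, and the 4 carbon chain enzymes had -0.42, 0.39 and -0.22 in Kmt2d+/+ and 0.45 and 0.30 in Kmt2d-/-. The sterol median exceeded the carbon chain median by 1.26, 0.80 and 0.96 in the Kmt2d+/+ clones and by 0.04 and 0.52 in the mutant clones, so the genotypes did not overlap in this difference. With 3 against 2 clones, and a split made after the values were seen, that difference has no test. The median over all genes tested lay between -0.01 and 0.02 in each clone.

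**Figure D4:**
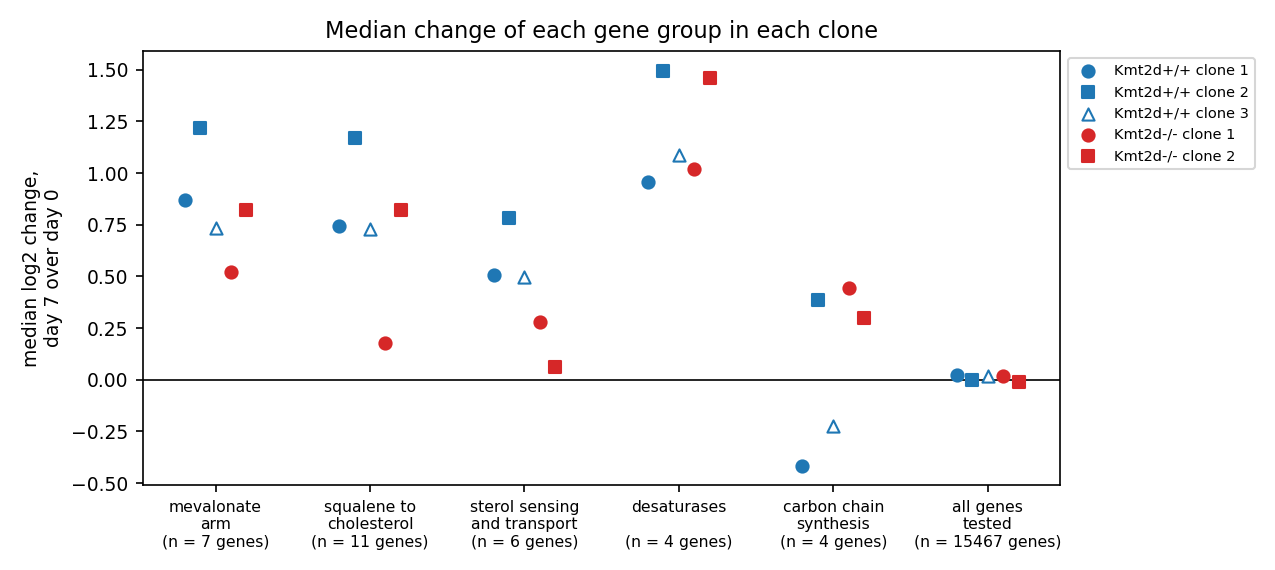
Median log2 change from day 0 to day 7 (y axis) of each group of genes in each clone, with the number of genes in each group under its name; blue symbols are Kmt2d+/+ clones and red symbols Kmt2d-/- clones. The desaturases lie at 0.96 to 1.50 in all 5 clones, the carbon chain enzymes at -0.42 to 0.45, and all genes tested near zero.

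Per kilobase of exon the order of levels was led by Scd2, at 88.3 CPM per kilobase in Kmt2d+/+ clones at day 0 and 213 at day 7, and 113 and 339.9 in Kmt2d-/- clones. Hmgcs1 was next over all libraries, at 59.5, 124, 49.2 and 82.6 CPM per kilobase in the same order of groups. The order below Scd2 differed between groups: in Kmt2d-/- clones at day 7 Scd1, at 83.1, and Insig1, at 82.2, were level with Hmgcs1. Acat2 was at 81.3 in Kmt2d+/+ clones at day 7, above Insig1 at 65.5 and Cyp51 at 64.5, and at 58.5 in Kmt2d-/- clones, below Srebf2 at 62.3 and Cyp51 at 60.1. Fasn, at 8.72 to 11.3, Lss, at 3.97 to 8.21, and Dhcr7, at 2.86 to 6.73, were among the lowest. The summed level of the 18 sterol enzymes was 1190 to 1330 CPM in Kmt2d+/+ clones at day 0 and 1945 to 2915 at day 7, and 1041 and 1540 CPM in Kmt2d-/- clones at day 0 and 1868 and 1943 at day 7. The summed level of the 4 desaturases was 569 to 914 CPM and 1637 to 1772 in Kmt2d+/+ clones, and 791 and 1087 CPM and 2611 and 2630 in Kmt2d-/- clones. For the desaturases the 2 mutant libraries at day 7 were the highest of the 10, and for the sterol enzymes the 3 Kmt2d+/+ libraries at day 7 were, clone 3 only by 1945 against 1943 CPM.

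Other genes of the same routes were counted from lists. Of 11 tested genes of other sterol and isoprenoid synthesis 1 fell at day 7 in Kmt2d+/+ clones and 0 rose: Pdss1, which makes the side chain of coenzyme Q (log2 fold change -1.14, adjusted p = 0.044), where 2.04% of all genes fell. At day 0, 1 of the same 11 was lower in Kmt2d-/- clones and 0 were higher, where 0.976% of all genes were lower: Nus1, a subunit of the enzyme that makes dolichol. It stood at 258 ± 22.0 CPM in Kmt2d+/+ and 132 ± 5.21 CPM in Kmt2d-/- clones (SD, n = 3 and 2; log2 fold change -0.96, adjusted p = 0.0267 in edgeR), with its neighbours at -0.26 and -0.07 in the mutant clones. Of 26 tested genes of other fatty acid synthesis and activation 2 rose at day 7 in Kmt2d+/+ clones, where 3.05% of all genes rose. They were Acacb (log2 fold change 1.47), the mitochondrial carboxylase whose product restrains fatty acid oxidation, and Tecr (1.12), the last reductase of chain elongation. In the same comparison 1 fell, the elongase Elovl7 (-1.94), where 2.04% of all genes fell. Of 12 genes of SREBP processing and turnover 0 passed in any comparison in edgeR, with 4 at an unadjusted p under 0.05 for day 7 in Kmt2d+/+ clones, where 24.7% of all genes were. For day 7 in Kmt2d+/+ clones the medians of these 3 lists were -0.06, -0.17 and 0.00, beside 0.03 over all genes. No gene of these 3 lists passed for day 7 in Kmt2d-/- clones. The lists of sterol uptake, efflux and storage and of fatty acid oxidation had higher medians for day 7 in Kmt2d+/+ clones, 0.60 and 0.40. A positive median at day 7 was thus not particular to the 32 genes.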

How the data were processed

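Polyadenylated RNA of 5 clones at 2 days was sequenced in 10 libraries, each run on 2 flow cells (20 columns). The authors deposited gene-level estimated counts, not normalized, for 27911 genes. The submitters' processing notes name DESeq2, limma, edgeR, Salmon and the build GRCm38, with versions, annotation and use of strand not given in the sources used here, so overlapping genes cannot be told apart. Runs were summed per clone and day and rounded to whole counts. A floor of 3 counts is 0.0838 CPM in the shallowest library and covers counting error only. Symbols and coordinates came from GENCODE vM21; of 161 listed genes 160 were matched.

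A mean for each of 4 groups was fitted to all libraries with edgeR 4.0.16 (R 4.3.3): filterByExpr, TMM, quasi-likelihood F test, 6 residual degrees of freedom, Benjamini-Hochberg adjustment over 15467 genes, threshold 0.05. Standard errors were derived from the fold change and its F statistic. The edgeR fit was also run on simulated counts, for the comparison of genotypes at day 7 alone. The simulated libraries were drawn independently, so this run does not cover the day comparisons or the pairing of days within a clone. The day 0 and day 7 libraries of a clone are the same cell line, which pairs them. Their deviations from the group means correlated at 0.395, 0.595 and 0.522 in Kmt2d+/+ clones and 0.506 in the mutant pair. The fit of group means takes the 10 libraries as independent, so both libraries of a clone count toward the spread, also between genotypes. Alternatives were DESeq2 1.42.0, limma-voom 3.58.1, DESeq2's size factors, upper-quartile scaling, no low-count filter, a filter at a mean of 5 CPM, single runs, fits of the compared groups alone, a term for each clone, the median of at least 20 neighbours within 10 Mb as an offset, and each clone left out. Named were members that passed, otherwise the lowest p of a role group, up to 4 passing genes of a pathway list, otherwise the most abundant. Members and lists were chosen with earlier results of these data known. A gene that this rule drew is not reported here.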

Additional observations from a re-analysis of the deposited data

How the results depend on the processing

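With a term for each clone (the replicate block), 21 of the 32 genes passed for day 7 in Kmt2d+/+ clones in place of 13, and 6 in place of 2 in Kmt2d-/- clones; the block changed no other call of a comparison, and it cannot be fitted between genotypes, since each clone has 1 genotype. Leaving out 1 clone at a time gave 0 to 9 calls in Kmt2d+/+ clones, where 0 to 862 genes of the table passed. In Kmt2d-/- clones it gave 0 to 2, where 0 to 183 genes passed. Between genotypes it gave 0 at day 7, where 10 to 272 passed, and 0 to 1 at day 0, where 10 to 912 passed. Fewer samples were in these fits. For day 7 in Kmt2d-/- clones DESeq2 called 6, and a fit of only the groups compared called 0. Between genotypes DESeq2 called 4 at day 7 and 1 at day 0, in place of 0; the cause was not tested. The median log2 fold change of the sterol enzymes ranged, without 1 clone at a time, from -0.37 to 0.0587 between genotypes at day 7, from -0.0283 to 0.33 at day 0, and from -0.58 to -0.0547 for the difference of the day effects. The direction at day 7 turned without Kmt2d+/+ clone 2 and that at day 0 without Kmt2d-/- clone 1. Of 468 alternative values for 30 results on named genes, 399 kept their direction and side of the threshold, 58 lost the threshold, 11 gained it and 0 turned. These totals make the calls look steadier than they were. The 30 results hold the 13 and 2 calls of the day comparisons, and the others had not passed and could not lose the threshold. Without Kmt2d+/+ clone 3, 15 of the 30 lost it, which is every call, and without clone 1 it was 13. Depth gave each of the 32 genes except Tm7sf2 levels far above the floor, and the number of clones limits the precision.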

Other observations

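Genes of sterol handling and of fatty acid oxidation were counted from lists beside the synthesis genes. At day 0, 2 of 24 tested genes of sterol uptake, efflux and storage were higher in Kmt2d-/- clones and 0 were lower (edgeR, adjusted p under 0.05), where 1.17% of all genes were higher and 0.976% lower. Npc2, the lysosomal protein that hands cholesterol to NPC1, stood at 65.5 ± 11.3 CPM in Kmt2d+/+ (SD, n = 3) and 125 ± 6.57 CPM in Kmt2d-/- clones (n = 2), a log2 fold change of 0.93 with an adjusted p of 0.031 in edgeR. Its neighbours within 10 Mb, averaged over both days, were raised too, by 0.68 and 0.64 on the log2 scale in the mutant clones. Mylip, a ubiquitin ligase that directs lipoprotein receptors to degradation, stood at 16.8 ± 1.73 and 45.6 ± 16.6 CPM (1.44), with its neighbours at 0.20 and 0.48. At day 7 Npc2 alone of this list passed (0.87), where 0.905% of all genes were higher.

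Of 20 tested genes of fatty acid oxidation 3 were higher in Kmt2d-/- clones at day 0, where 1.17% of all genes were, and 0 were lower. Cpt1a, which attaches fatty acids to carnitine at the mitochondrion, stood at 27.0 ± 4.25 CPM in Kmt2d+/+ and 68.7 ± 18.6 CPM in Kmt2d-/- clones (log2 fold change 1.35), with its neighbours at 0.41 and 0.39 in the mutant clones. Slc25a20, the carnitine carrier, had 1.22, with neighbours at -0.19 and -0.18, and Eci2, an isomerase for unsaturated chains, 0.81, with neighbours at 0.33 and 0.54. At day 7 Eci2 passed (0.94), where 0.905% of all genes were higher, and Cpt1a did not, at 44.3 ± 9.58 and 40.7 ± 5.04 CPM. For day 7 in Kmt2d+/+ clones Mylip rose (1.25), 1 of 24 genes of sterol uptake, efflux and storage, where 3.05% of all genes rose. No gene of oxidation passed in that comparison, with 7 of 20 at an unadjusted p under 0.05, where 24.7% of all genes were.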
